A study of Mus musculus with 908 samples.

Results

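Integrin α6-positive tumour cells sampled after adoptive cell transfer were compared with CD44-negative α6+ cells sampled from tumours before it. The aim was to describe how basal-like cancer cells present after immunotherapy differ from this 1 fraction of the α6+ cells before it. The CD44+ α6+ fractions sampled before transfer were left out, and the cells after transfer were not sorted on CD44. All cells came from mouse skin squamous cell carcinoma, were sorted singly by flow cytometry and were sequenced by Smart-seq2, a full-length transcript protocol, with 1 library per well. The cells after transfer were the libraries of plates OT2 and OT_B, and the CD44-negative α6+ cells those of plate DN. On both sides a cell was selected on 2 criteria, at least 2000 genes at a TPM of 1 or more and an Itga6 level of at least 10 TPM. TPM is the length-normalised share of a library's transcripts, and Itga6 encodes the α6 chain. This left 94 cells after transfer, 48 of the 87 usable cells on OT2 and 46 of the 90 on OT_B, and 70 of the 91 usable CD44-negative α6+ cells. The series holds 908 libraries in all, of which 696 passed the gene count.

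The tumours sampled after transfer carried TRE-OVA, an inducible ovalbumin antigen, TRE-HrasG12V, an inducible activated Hras, and PGK-rtTA3P2AmCherry, a constitutive inducer with mCherry. Their cells were gated as mCherry+ without selection on α6, CD34 or CD44. The tumours sampled before transfer carried TRE-HrasG12V with SBE-mCherry-PGK-rtTA3, in which a SMAD-binding element drives mCherry, and no ovalbumin. Their cells were gated as integrin α6+ and negative for mCherry, CD34 and CD44. This gate held no constitutive mark of the construct, unlike the gate after transfer. Whether every cell before transfer carried the construct is therefore not known. Both gates excluded CD45, CD117, CD140a and CD31, and the labels give both groups as mixed sex and P60 to P90. The groups therefore differ in strain, antigen, reporter and gate as well as in treatment, and these cannot be told apart. No animal is named, so each group counts as 1 sample and no test was possible. Exact 95% binomial intervals are given for shares of cells and cover counting error only. Whether such intervals overlap or part is therefore no test of a difference between the groups.

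The α6β4 integrin anchors basal keratinocytes to the basement membrane through hemidesmosomes. As keratinocytes leave that membrane they switch from Krt5 and Krt14 to Krt1 and Krt10 and later lay down a cornified envelope of small proline-rich proteins cross-linked by transglutaminases. Wounded, inflamed and transformed epidermis instead expresses Krt6, Krt16 and Krt17 with the alarmins S100a8 and S100a9. T cells recognise tumour cells through peptides on MHC class I, while class II is normally a feature of professional antigen-presenting cells and can be induced in keratinocytes by interferon-γ.

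Itga6 itself, which chose the cells and is given only as a description, had a lowest, median and highest level of 10.1, 38.4 and 470.6 TPM after transfer and 10.51, 51.03 and 267.3 TPM in CD44-negative α6+ cells. The cells just inside the limit had 10.6 TPM on OT2, 10.1 on OT_B and 10.51 on DN, and those just outside had 9.48, 9.12 and 9.72 TPM. In a library matched by correlation as a likely repeat of the same cell, which 67 of the 94 cells had, Itga6 again reached 10 TPM in 62. Keratinocyte markers were detected in every cell of both groups. Cells with a transcript of the pan-leukocyte list numbered 10 of 94 after transfer and 3 of 70 before, although Ptprc (CD45) was listed at 0 in both. No cell after transfer and 1 of 70 before reached 1 TPM for a T or NK cell marker, with 5 of the 6 at 0 in both groups, and mast cell markers were at 0 throughout. Fibroblast markers were detected in 3 of 94 cells after transfer and 12 of 70 before. The endothelial transcript Pecam1 reached 1 TPM in 25.5% of cells after transfer and 12.9% of CD44-negative α6+ cells, and the melanocyte gene Tyr in 26.6% after transfer and 5.71% before, with 4 of the 6 markers of the endothelial list at 0 in both groups and at least 3 of the 6 of the melanocyte list. Their part in the results was not tested.

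The 2 groups had like numbers of detected genes. The median number of genes at 1 TPM or more was 6938.5 per cell after transfer and 6933.5 per CD44-negative α6+ cell, and 8 rows of mainly ribosomal RNA took a median of 73.6% of the TPM after transfer and 73.2% before. That ribosomal share was 70.7% on OT2 and 75.8% on OT_B. The groups were not alike in the ERCC spike-in rows, which took a median of 0.122% of the TPM after transfer and 0.438% before. The part of these shares in the results was not tested. Sex-linked transcripts divided the CD44-negative α6+ plate but not the plates after transfer. After transfer 91 of 94 cells had Y-linked transcripts and 0 had Xist (the RNA that coats the inactive X), whereas the CD44-negative α6+ plate held 31 cells with Y-linked transcripts alone and 36 with Xist alone. Results are also given against each of these 2 sets for some genes and lists, and not for every gene.

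Across 12490 genes detected in at least 10% of cells of either group, the median log2 fold was -0.02. Some genes named below, among them Dlk2, Krt80, Aldh3a1, Add2, Spink5 and Vim, were under 10% in 1 group and entered through the other alone. A fold here is the ratio of mean TPM plus 1, after transfer over CD44-negative α6+. A gene was called only if the ratio passed 2 in the pooled cells and on OT2 and OT_B separately, with the mean of log2(TPM + 1) moving the same way. By this rule 1.3% of the genes were called higher after transfer and 1.87% lower. Of the genes called higher, 92.6% were also at least 2-fold higher against the cells with Y-linked transcripts alone, and 87.7% against the cells with Xist. Of those called lower, 75.5% were at least 2-fold lower against each of these sets.

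The main basal keratin was level between the groups, while 4 other basal transcripts were lower after transfer. Krt14, which forms the basal keratin network with Krt5, had a lowest, median and highest level of 60.9, 7844 and 16429 TPM on OT2 and 20.3, 6145 and 12536 TPM on OT_B, against 75.5, 7179.7 and 13652 TPM in CD44-negative α6+ cells. The groups overlapped over nearly their whole range. Of the 14 basal keratins and integrins, 0 were called higher and 4 lower, with a list median of -0.40. Bcam, a laminin receptor, averaged 32.6 TPM after transfer and 86.6 TPM in CD44-negative α6+ cells, with medians of 13.4 and 76.1 TPM. The other 3 were Sostdc1, a secreted BMP and WNT antagonist, at 16.3 TPM after transfer against 81.5 TPM before, Igfbp2, an insulin-like growth factor binding protein, at 4.94 TPM after transfer against 20.5 TPM before, and the matrix protein gene Postn at 4.33 TPM after transfer against 29.6 TPM before. The fibroblast markers above were also detected in fewer cells after transfer, and their part in the Postn result was not tested. Sostdc1 was 2-fold lower against the cells with Y-linked transcripts (log2 fold -2.93) but not against those with Xist (-0.74). In the whole list 3 genes were called lower against the cells with Y-linked transcripts alone and 2 against those with Xist alone. Dlk2, a transmembrane relative of the NOTCH ligands, was detected in 7.45% of cells after transfer (interval 3.05 to 14.7) against 44.3% of CD44-negative α6+ cells (32.4 to 56.7). Krt15, a keratin of slow-cycling basal cells, was detected in 17.02% of cells after transfer (10.1 to 26.2) against 62.9% before (50.5 to 74.1). Its mean was not called, because OT_B averaged 111.3 TPM and OT2 10.3 TPM, against 94.9 TPM before transfer.

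Of 11 hemidesmosome and laminin-332 genes 0 were called, with a median of -0.16. The typical cell was lower than these ratios of means show. The summed TPM of the list had a median of 297.6 per cell after transfer against 616.7 before, with the highest cells at 7662 and 3540 TPM. The median difference in mean log2(TPM + 1) was -0.79 for the list, against -0.02 for all genes entered. Lama3, the α3 chain of laminin-332, averaged 141.1 TPM on OT2 and 25.7 TPM on OT_B, against 34.4 TPM before transfer. It was higher on OT2 and lower on OT_B than in the cells before transfer. Col17a1, the hemidesmosome collagen, was at 94.8 TPM after transfer against 148.3 TPM before and was not called.

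**Figure D1:**
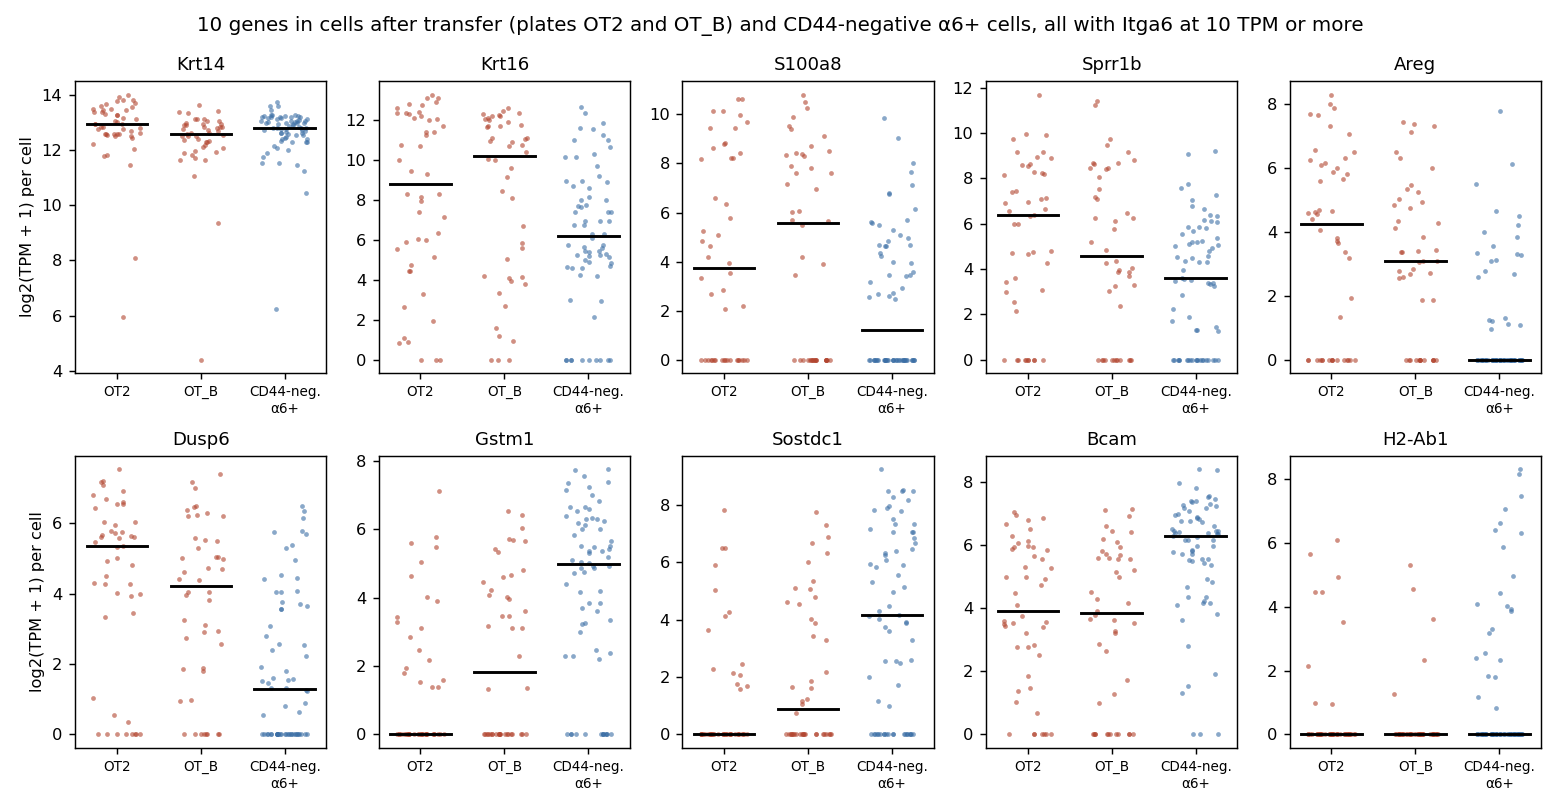
Level of 10 genes in every cell, as log2(TPM + 1), for plates OT2 (48 cells) and OT_B (46 cells) after transfer and for CD44-negative α6+ cells (70 cells); black bars are medians. Krt14 overlaps almost fully, Krt16, S100a8, Areg and Dusp6 sit higher after transfer, and Gstm1, Sostdc1 and Bcam sit lower.

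Stress keratins and alarmins had the highest median of the lists with at least 3 entered members, with 6 of 13 entered members called higher, 1 lower and a median of 1.68. Krt16, a type I keratin of wounded epidermis, had levels of 0, 469.7 and 9951 TPM on OT2 and 0, 1198 and 6276 TPM on OT_B, against 0, 72.3 and 6417 TPM in CD44-negative α6+ cells (lowest, median and highest). The gene was detected in 90.4% of cells after transfer and 85.7% before, so the groups differed in level more than in detection, and their ranges overlapped. Its mean of 2117 TPM after transfer against 575.2 TPM before gave a log2 fold of 1.88. Krt6b, a type II keratin of the same state, averaged 1177 TPM after transfer against 331.7 TPM before. S100a8 and S100a9, the calprotectin subunits, averaged 239.8 and 152.2 TPM after transfer and 41.5 and 32.2 TPM before. S100a8 was at 0 TPM in the lowest cell of each plate and at 1798 TPM in the highest after transfer, against 927.5 TPM in the highest before. Its log2 fold was 1.58 over the cells with Y-linked transcripts and 4.30 over those with Xist. Among cells with Itga6 at 50 TPM or more, 0 genes of this list were called and the median was 0.52. Il18, an epithelial cytokine of the interleukin-1 family, was the member called lower, at 4.42 TPM after transfer against 10.6 TPM before. It rested on the cells with Xist, since its log2 fold was 0.03 against cells with Y-linked transcripts. Il1a, the interleukin-1 alarmin, was detected in 32.98% of cells after transfer (23.6 to 43.4) against 4.29% before (0.893 to 12.02) and just missed the rule on OT_B, with a log2 fold of 0.88.

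Several ligands of the epidermal growth factor receptor and 3 of 17 entered genes of the RAS-MAPK list were called higher, with Hras itself near level. Hras averaged 55.9 TPM after transfer against 52.8 TPM before, and the sources used here do not say whether it includes reads of the transgene. Areg, amphiregulin, had a lowest, median and highest level of 0, 17.8 and 311.3 TPM on OT2 and 0, 7.47 and 169.7 TPM on OT_B, against 0, 0 and 215.9 TPM in CD44-negative α6+ cells. It was detected in 69.1% of cells after transfer (58.8 to 78.3) against 31.4% before (20.9 to 43.6). Hbegf, heparin-binding EGF, averaged 35.9 TPM after transfer against 8.24 TPM before, and Tgfa, transforming growth factor alpha, 44.8 TPM after transfer against 14.5 TPM before. Dusp6, a phosphatase that switches off ERK, had medians of 25.2 TPM after transfer against 1.43 TPM before and a log2 fold of 1.85. Phlda1, an ERK-responsive gene, was detected in 61.7% of cells after transfer against 20% before. In the RAS-MAPK list, which includes Tgfa, 0 were called lower and the median was 0.29. Among cells with neither Mki67 nor Top2a 0 of its 18 entered genes were called, with a median of 0.64. The receptors Egfr, Erbb2 and Erbb3 had log2 folds of -0.10, -0.08 and -0.17, and Epgn, another ligand, was high on OT2 alone (40.2 TPM against 5.47 on OT_B and 7.17 before transfer).

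Il24, a cytokine of the interleukin-10 family (chromosome 1, 130882074 to 130887454 on mm10), was the second highest of the named genes. It averaged 68.9 TPM after transfer, 114.3 on OT2 and 21.4 on OT_B, against 6.74 TPM in CD44-negative α6+ cells, where 1 cell alone reached 432.9 TPM. Its detection was 30.9% of cells after transfer against 12.9% before. Vegfa, the angiogenic growth factor, averaged 9.0 TPM after transfer against 1.83 TPM before and was the 1 hypoxia and glycolysis gene of 21 called higher, in a list with a median of 0.28. Cdkn1a, the cyclin-dependent kinase inhibitor p21, averaged 149.9 TPM after transfer against 56.8 TPM before, and Zmat3, a p53 target, was detected in 89.4% of cells after transfer against 52.9% before. Mdm2, another p53 target, had a log2 fold of 0.996 and missed the rule on OT_B at 0.91, while Trp53 transcripts averaged 30.5 TPM after transfer against 46.01 TPM before. Of the 17 entered genes of cell cycle inhibitors and p53 targets, 2 were called higher, Cdkn1a and Zmat3. Against the cells with Xist alone 0 of the list were called, and against those with Y-linked transcripts 4 were called higher and 2 lower.

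Of 13 entered cornified envelope genes, which mark late differentiation, 5 were called higher and 0 lower, with a median of 0.46. Sprr1b, a small proline-rich envelope precursor, had a lowest, median and highest level of 0, 82.1 and 3344 TPM on OT2 and 0, 23.5 and 2745 TPM on OT_B, against 0, 11 and 599.5 TPM in CD44-negative α6+ cells. It was detected in 76.6% of cells after transfer and 71.4% before, so the groups differed in level more than in detection. Sprr1a, from the same family, averaged 45.2 TPM after transfer against 4.75 TPM before, and its highest cell reached 1245 TPM after transfer and 59.01 TPM before. Spink5, an inhibitor of the proteases that shed corneocytes, was detected in 31.9% of cells after transfer against 7.14% before, and Tgm1, the envelope transglutaminase, in 30.9% of cells after transfer against 17.1% before. In the suprabasal list of 16, 3 were called higher and 2 lower, with a median of 0.56. Sbsn, suprabasin, averaged 78.6 TPM after transfer against 25.4 TPM before, and Serpinb2, a protease inhibitor of differentiating cells, 2.98 TPM after transfer against 16.4 TPM before. Krt10 averaged 43.8 TPM after transfer against 61.3 TPM before and was not called. These lists turn on the Itga6 limit: among the 42 cells after transfer and 36 before with Itga6 at 50 TPM or more, the suprabasal median was -0.40, the cornified envelope median -0.40 and the log2 fold of Sprr1a -0.54, with 0 genes called higher and 2 lower in each list.

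Because 3 envelope genes of 1 cluster on chromosome 3 were called together, their promoters are shown. The windows run from 250 bases before to 50 after the transcript start in RefSeq, on build GRCm38.p6, and capitals mark TGANTCA, letters that cover the site of the factor AP-1, searched on both strands.
Sprr1a, chr3:92485832-92486131, minus strand: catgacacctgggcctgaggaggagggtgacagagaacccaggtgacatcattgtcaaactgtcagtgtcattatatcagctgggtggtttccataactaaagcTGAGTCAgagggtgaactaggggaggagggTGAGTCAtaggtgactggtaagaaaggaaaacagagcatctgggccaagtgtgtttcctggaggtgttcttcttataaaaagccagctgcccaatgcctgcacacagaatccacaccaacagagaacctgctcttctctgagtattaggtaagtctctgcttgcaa
Sprr1b, chr3:92438730-92439029, minus strand: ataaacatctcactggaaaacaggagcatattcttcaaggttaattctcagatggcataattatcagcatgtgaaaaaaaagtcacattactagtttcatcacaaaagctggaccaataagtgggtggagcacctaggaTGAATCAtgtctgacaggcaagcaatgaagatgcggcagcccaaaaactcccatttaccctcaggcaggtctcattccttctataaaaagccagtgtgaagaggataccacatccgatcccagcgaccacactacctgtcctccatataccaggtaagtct
Sprr2h, chr3:92385435-92385734, plus strand: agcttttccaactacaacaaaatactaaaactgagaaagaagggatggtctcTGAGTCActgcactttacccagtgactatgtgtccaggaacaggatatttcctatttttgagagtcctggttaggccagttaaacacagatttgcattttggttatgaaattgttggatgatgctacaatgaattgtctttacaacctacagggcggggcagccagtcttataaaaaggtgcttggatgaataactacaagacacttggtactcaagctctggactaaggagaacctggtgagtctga
The Sprr1a window holds 2 matches and the other windows 1 each. The letters are wider than the AP-1 site, which has C or G at N, and the Sprr1b match has A there. Among the 11 genes called higher in the stress and envelope lists, 7 had a window in the table and 3 of these held the letters, against 7.93% of 27025 promoters. These 3 are the related genes of the 1 cluster, taken because they were called, so the counts are no test of enrichment. A match is a description of letters and does not show that a factor binds. The windows of S100a8, S100a9, Areg and Tgm1 held no match.

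MHC class II transcripts were lower, and every entered member was called. The list holds Cd74, the invariant chain, the chains H2-Aa, H2-Ab1 and H2-Eb1, and the peptide loading genes H2-DMa and H2-DMb1, with a median of -1.996, which was -2.004 against the cells with Y-linked transcripts and -1.53 against those with Xist. Ciita, the class II transactivator, was detected in 5.32% of cells after transfer against 5.71% before and did not enter. H2-Ab1 averaged 3.0 TPM after transfer (4.25 on OT2 and 1.69 on OT_B) and 19.6 TPM in CD44-negative α6+ cells, with medians of 0 TPM in both groups. Its highest cell reached 66.6 TPM after transfer and 314.04 TPM before. It was detected in 12 of 94 cells after transfer (12.8%, interval 6.77 to 21.2) against 22 of 70 before (31.4%, 20.9 to 43.6). Cd74 averaged 3.31 TPM after transfer against 29.6 TPM before. At least 3 of the class II transcripts were detected together in 4 of 94 cells after transfer (4.26%, interval 1.17 to 10.54) against 13 of 70 CD44-negative α6+ cells (18.6%, 10.3 to 29.7). The means rest on few cells, since the 3 highest held 53.2% of the summed class II TPM after transfer and 66.2% before. Myeloid markers were detected in 3 of 94 cells after transfer and 9 of 70 before, and their part in the result was not tested. Among cells with Itga6 at 50 TPM or more, 0 of the class II genes were called and the median was -0.59, and among cells with neither Mki67 nor Top2a 2 were called, with a median of -0.91.

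The promoters of an α and a β chain are shown for the same reason, that the genes were called together. Capitals mark CTGATTGG, letters of the Y box that class II promoters share, searched on both strands.
H2-Aa, chr17:34287774-34288073, minus strand: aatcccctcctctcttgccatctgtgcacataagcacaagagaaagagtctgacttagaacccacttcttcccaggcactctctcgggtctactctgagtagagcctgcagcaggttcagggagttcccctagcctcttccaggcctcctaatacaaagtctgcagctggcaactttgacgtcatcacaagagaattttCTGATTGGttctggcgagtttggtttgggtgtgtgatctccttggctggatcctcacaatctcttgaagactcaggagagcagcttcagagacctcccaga
H2-Eb1, chr17:34305617-34305916, plus strand: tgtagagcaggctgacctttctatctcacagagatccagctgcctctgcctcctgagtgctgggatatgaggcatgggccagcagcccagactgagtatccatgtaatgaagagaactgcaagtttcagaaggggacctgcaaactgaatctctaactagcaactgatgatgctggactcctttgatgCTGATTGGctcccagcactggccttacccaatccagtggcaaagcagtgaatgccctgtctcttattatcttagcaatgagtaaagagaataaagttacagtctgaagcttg
These letters occurred in 4.32% of the 27025 promoters, and the windows of H2-DMa and H2-DMb1 held no match. The H2-DMb1 window holds gtgattgg, which differs in its first letter, so no match does not show that a Y box is absent. H2-Ab1 had no window in the table. The shorter letters ATTGGC, which overlap them, matched 1 of the same 4 genes' windows, that of H2-Eb1, and 15.2% of all promoters.

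**Figure D2:**
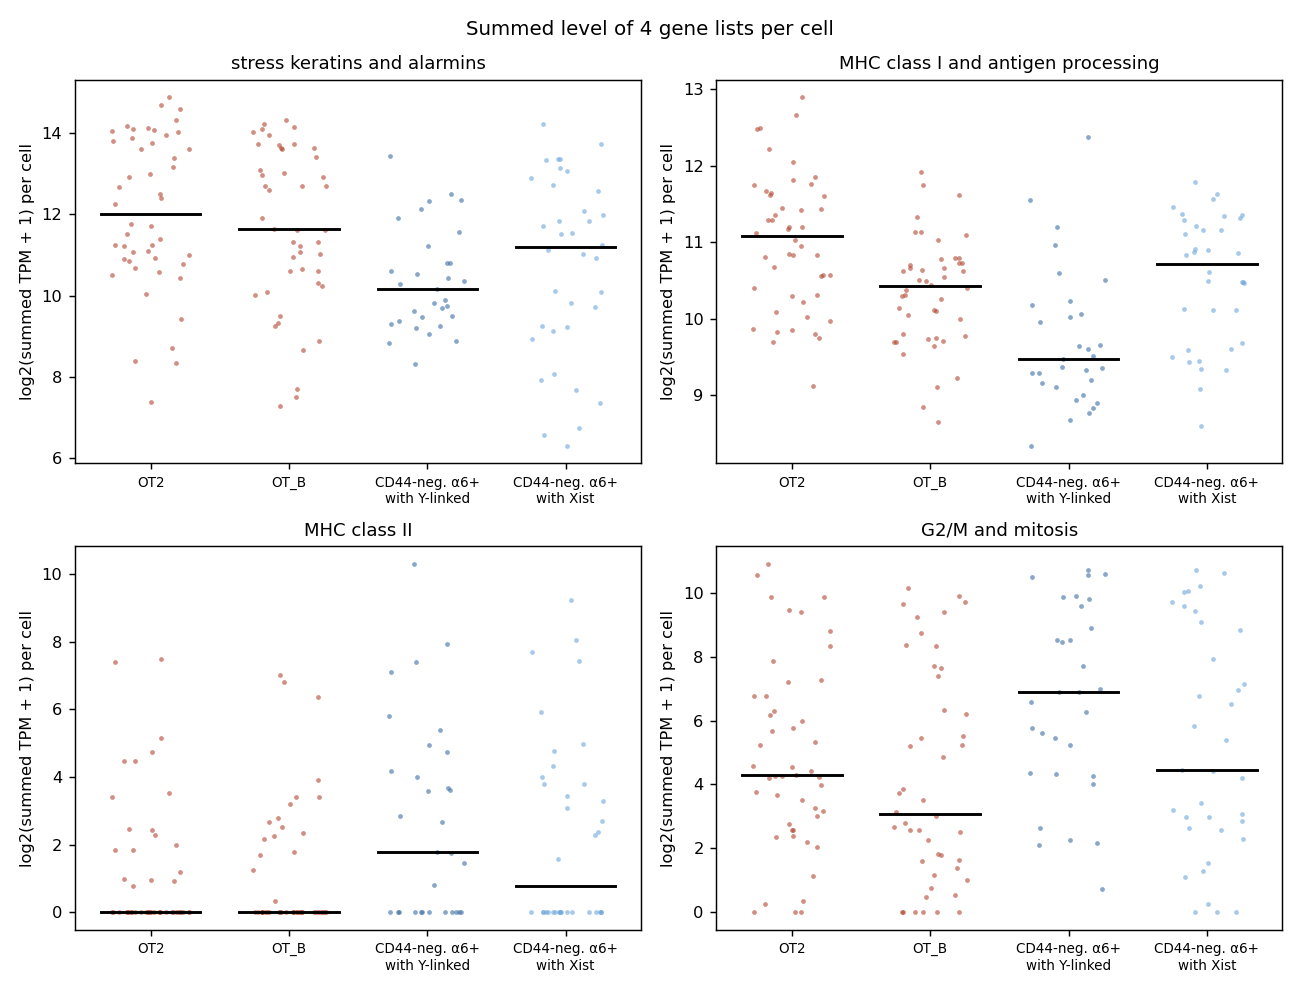
Summed TPM per cell of 4 gene lists, as log2(sum + 1), for plates OT2 and OT_B after transfer and for CD44-negative α6+ cells with Y-linked transcripts (31) and with Xist (36); black bars are medians. The class II median is 0 on both plates after transfer, and the class I sum is lowest in cells with Y-linked transcripts.

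MHC class I genes gave no call in either direction, but 7 were called higher among cells with Itga6 at 50 TPM or more, where the median was 1.16. Of 24 entered genes of class I and antigen processing, 22 had ratios above 1 in the pooled cells, with a median of 0.45, and the median was 0.71 on OT2 and -0.01 on OT_B. B2m, the class I light chain, averaged 678.3 TPM on OT2 and 346.9 TPM on OT_B, against 316.6 TPM in CD44-negative α6+ cells. H2-K1, a heavy chain, averaged 466.04 and 299.2 TPM on these plates, against 257.01 TPM before transfer. Psmb9, an immunoproteasome subunit, was detected in 71.3% of cells after transfer against 41.4% before, and Tap2, a subunit of the peptide transporter, in 78.7% of cells after transfer against 51.4% before. Within the CD44-negative α6+ cells, B2m averaged 174.3 TPM in those with Y-linked transcripts and 454.8 TPM in those with Xist.

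Interferon-response genes were mixed and followed the sex-linked split of the CD44-negative α6+ plate. Of 32 entered, 1 was called higher and 5 lower, with a median of -0.15 (11 higher and 2 lower among cells with Itga6 at 50 TPM or more), which was 0.26 against the cells with Y-linked transcripts and -0.25 against those with Xist. Ifi27l2a, an interferon-induced gene (chromosome 12, 103442167 to 103443680 on mm10), was the lowest of all named genes at 1.73 TPM after transfer against 84.8 TPM before, a log2 fold of -4.98. It averaged 4.31 TPM in the cells with Y-linked transcripts and 156.9 TPM in those with Xist, so the difference rests mainly on the Xist cells. Usp18, a brake on interferon signalling, and Oas1a, an antiviral enzyme, had log2 folds of 0.60 and 0.21 against the cells with Y-linked transcripts, and -1.92 and -2.02 against those with Xist. Ifi44, another interferon-induced gene, was listed at 0 in all 94 cells after transfer and was detected in 11 of 70 cells before, through which alone it entered. The 0 allows a share of up to 3.19%, a limit taken as 3 cells of 94 and not an exact interval. Against the cells with Y-linked transcripts 2 of the 30 interferon-response genes that entered were called higher and 0 lower. Against those with Xist 4 of 33 were called higher and 7 lower. Igtp, an interferon-γ-induced GTPase, was higher at 11.01 TPM after transfer against 4.64 TPM before. Cxcl9, a chemokine induced by interferon-γ and a member of the chemokine list, was detected in 31.9% of cells after transfer against 8.57% before but was not called.

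**Figure D3:**
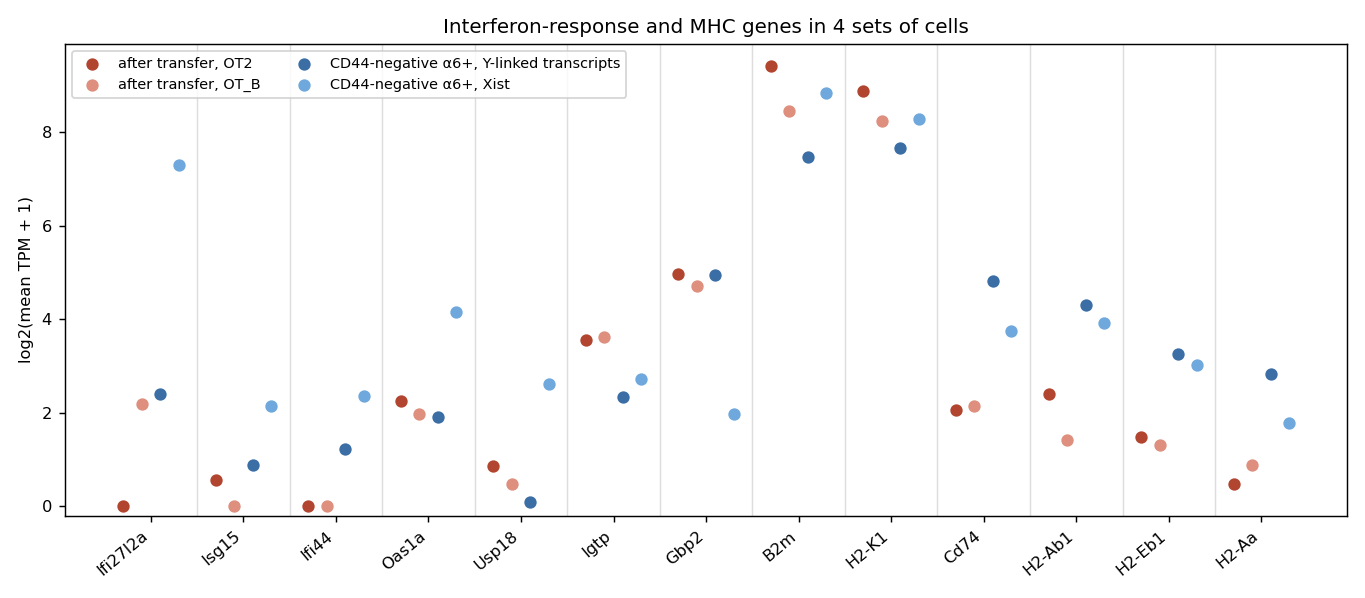
Mean level of interferon-response and MHC genes, as log2(mean TPM + 1), in cells after transfer on OT2 and OT_B and in CD44-negative α6+ cells with Y-linked transcripts or with Xist. Ifi27l2a, Oas1a and Usp18 are high in the Xist cells alone, whereas the class II genes are higher in both sets of CD44-negative α6+ cells than on either plate after transfer.

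Cd80, a ligand of CD28 and CTLA-4, was detected in 26 of 94 cells after transfer (27.7%, interval 18.9 to 37.8) against 4 of 70 CD44-negative α6+ cells (5.71%, 1.58 to 13.99). On OT2 it was detected in 18 of 48 cells and on OT_B in 8 of 46. Its mean was 2.01 TPM after transfer against 0.617 TPM before and was not called, since the log2 fold was 1.296 on OT2 and 0.31 on OT_B. After transfer detection was higher in cells with more genes, while the 4 cells with Cd80 before transfer are too few to show a trend. Below 6000 genes per cell Cd80 was detected in 0 of 11 cells after transfer and 0 of 10 before. Between 6000 and 8000 genes the counts were 19 of 74 after transfer and 3 of 52 before. Above 8000 genes they were 7 of 9 after transfer and 1 of 8 before. In the repeat libraries, 21 cells had Cd80 in both libraries, 2 in the first alone, 2 in the repeat alone and 42 in neither. Cd274, which encodes PD-L1, was detected in 13 of 94 cells after transfer (13.8%, 7.57 to 22.5) against 3 of 70 before (4.29%, 0.893 to 12.02), and these intervals overlap. Nt5e, the ectoenzyme CD73, averaged 16.96 TPM after transfer against 6.37 TPM before and missed the rule on OT_B. Cd47, a ligand that restrains phagocytosis, averaged 14.5 TPM after transfer against 24.4 TPM before, and Lgals9, galectin-9, was detected in 48.9% of cells after transfer (38.5 to 59.5) against 82.9% before (71.97 to 90.8). Of the 14 entered genes of this list 0 were called higher and 1 lower, 4632428N05Rik, at 0.432 TPM after transfer against 4.96 TPM before. In the list of death receptors and granule defence, 0 of 23 were called in either direction.

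**Figure D4:**
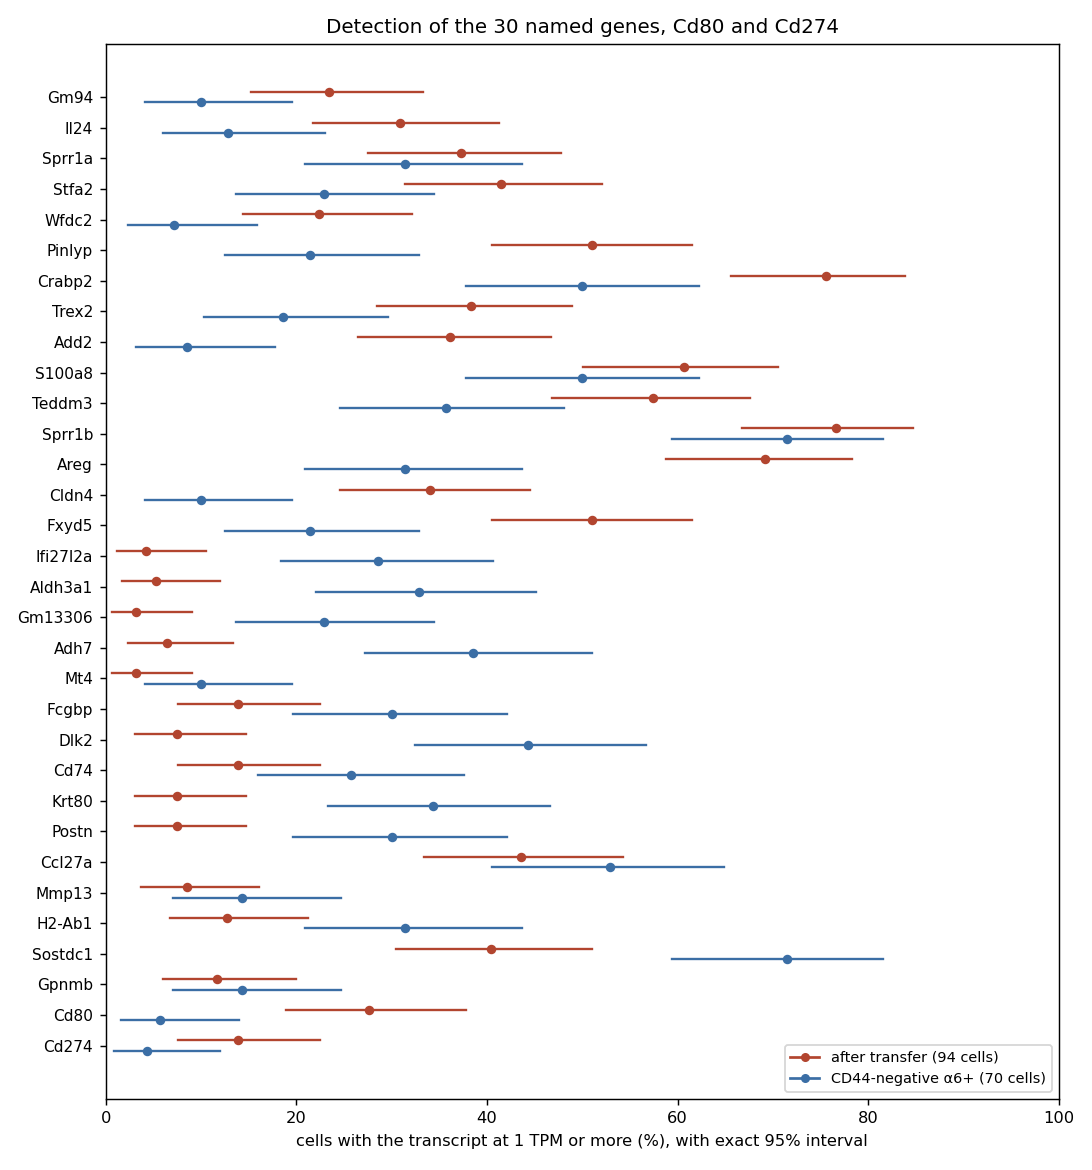
Share of cells with a transcript at 1 TPM or more, with exact 95% intervals, for the 30 named genes, Cd80 and Cd274, in 94 cells after transfer and 70 CD44-negative α6+ cells. The intervals of genes such as Areg, Dlk2, Adh7, Krt80, Add2, Cldn4 and Cd80 do not overlap between groups, whereas those of Sprr1a, Sprr1b and Ccl27a do. The 30 named genes were chosen by their ratios in these same cells, so intervals that part are a description and not a test. For Cd80 and Cd274 too, the intervals count cells and not animals and are no test.

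Enzymes of detoxification had calls in both directions. Aldh3a1, an aldehyde dehydrogenase, averaged 0.704 TPM after transfer against 38.2 TPM before and was detected in 5.32% of cells after transfer against 32.9% before. Adh7, an alcohol and retinol dehydrogenase, averaged 0.69 TPM after transfer against 15.8 TPM before. Gstm1, a glutathione transferase, had a lowest, median and highest level of 0, 0 and 136.9 TPM on OT2 and 0, 2.74 and 91.97 TPM on OT_B, against 0, 30.5 and 213.6 TPM in CD44-negative α6+ cells. Its mean was 8.71 TPM on OT2 and 15.04 TPM on OT_B. In CD44-negative α6+ cells the mean was 61.3 TPM with Y-linked transcripts and 29.97 TPM with Xist. Gsta4, of another transferase class, was called higher, averaging 253.5 TPM after transfer against 60.7 TPM before. With Gsta1, 2 of the 23 glutathione and NRF2 genes were called higher and 2 lower, and the list median was 0.17. Crabp2, which carries retinoic acid to its receptor, was among the 15 highest named genes at 99.6 TPM after transfer against 15.98 TPM before, with detection of 75.5% of cells after transfer against 50% before.

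Chemokine genes had 1 call in each direction among 12. Ccl27a, a skin chemokine that attracts CCR10-bearing T cells, averaged 16.97 TPM after transfer against 100.9 TPM before. Gm13306, a near copy, averaged 5.73 TPM after transfer against 88.4 TPM before, and reads could be divided between them in ways the TPM do not show. Cx3cl1, fractalkine, was detected in 74.5% of cells after transfer (64.4 to 82.9) against 40% before (28.5 to 52.4) and averaged 14.01 TPM after transfer against 4.5 TPM before. Cxcl1, a neutrophil chemokine, averaged 26.9 TPM on OT2 and 4.17 TPM on OT_B, against 1.98 TPM before transfer, and was not called.

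Cycle transcripts were detected in a smaller share of cells after transfer, with overlapping intervals. Mki67 or Top2a, markers of dividing cells, were detected in 50 of 94 cells after transfer (53.2%, interval 42.6 to 63.6) against 49 of 70 CD44-negative α6+ cells (70%, 57.9 to 80.4). The share was 60.4% on OT2 and 45.7% on OT_B. All 22 genes of the G2/M list had ratios below 1, with a median of -0.89, but only Ccnb1, cyclin B1, at 10.7 TPM after transfer against 30.6 TPM before, and Cenpf, a kinetochore protein gene, were called. S phase genes had a median of -0.70 and 0 of 20 called. Among the 44 cells after transfer and 21 before with neither Mki67 nor Top2a, the median was 0.27 for the 6 G2/M genes that entered and 0.28 for the 18 S phase genes.

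TGF-β and SMAD response genes gave no call among 21, with a median of 0.07. Of the stem surface and transition list, 1 of 12 was called, Vim, vimentin, at 4.59 TPM after transfer against 0.403 TPM before and in 12.8% of cells after transfer against 5.71% before. Cd44 transcripts were detected in every cell of both groups and averaged 195.4 TPM after transfer against 137.2 TPM before, so the gate that excluded surface CD44 did not exclude the RNA. Cd34 transcripts were detected in 18.1% of cells after transfer against 12.9% before. In the matrix list of 20, Ecm1, an extracellular matrix protein gene, averaged 49.2 TPM after transfer against 13.5 TPM before and was called higher, while Mmp13, a collagenase, and Timp3, a protease inhibitor, were called lower. Mmp13 averaged 1.69 TPM after transfer against 12.9 TPM before, but its log2 fold was 0.82 against cells with Y-linked transcripts.

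Plates OT2 and OT_B differed within the group. Of 10949 protein-coding genes entered, 4.63% were at least 2-fold higher on OT2 than on OT_B and 1.24% at least 2-fold lower. In the libraries matched as repeats of these cells, which were 36 for OT2 and 31 for OT_B, 44.4% of those higher and 75% of those lower passed 2-fold again. Krt18, a simple epithelial keratin, averaged 45.2 TPM on OT2 and 0.827 TPM on OT_B, against 0.661 TPM in CD44-negative α6+ cells, and its repeat libraries averaged 54.8 and 0.596 TPM. Krt8, its partner, was detected in 7 of 48 cells on OT2 and 0 of 46 on OT_B. Lgals1, galectin-1, averaged 207.3 TPM on OT2, 22.7 on OT_B and 12.1 TPM before transfer. The 3 highest cells held 58.4% of the Krt18 TPM on OT2, so a few cells set that mean. Of the 10 genes lowest on OT2 relative to OT_B, 7 were replication-dependent histone genes, with the linker histone gene Hist1h1b at 3.73 and 23.98 TPM. The log2 ratio of Hist1h1b, OT2 over OT_B, was -2.40, and -3.07 in the repeat libraries. The core histone genes among the 7 have near copies between which reads can be divided, and the part of this was not tested. Krt18, Krt8, Lgals1 and Hist1h1b were chosen here after their values were seen.

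The other named genes mostly fell in no list. Stfa2, a cysteine protease inhibitor of the stefin family, averaged 89.6 TPM after transfer against 11.5 TPM before, and Trex2, a DNA exonuclease of keratinocytes, 19.7 TPM after transfer against 2.53 TPM before. Cldn4, a tight junction claudin, was detected in 34.04% of cells after transfer (24.6 to 44.5) against 10% before (4.12 to 19.5). Add2, the β chain of the membrane skeleton protein adducin, was detected in 36.2% of cells after transfer (26.5 to 46.7) against 8.57% before (3.21 to 17.7), and Fxyd5, dysadherin, in 51.1% of cells after transfer against 21.4% before. Pinlyp and Teddm3 averaged 28.7 and 69.4 TPM after transfer and 3.73 and 11.9 TPM before. Wfdc2, a secreted protein of the whey acidic family, averaged 10.4 TPM after transfer against 0.596 TPM before. Gm94 had the largest ratio, at 19.8 TPM after transfer against 0.788 TPM before, with detection in 23.4% of cells after transfer and 10% before. It did not hold among cells with Itga6 at 50 TPM or more, where its log2 fold was -0.017.

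On the lower side, Krt80, an epithelial type II keratin, was detected in 7.45% of cells after transfer (3.05 to 14.7) against 34.3% before (23.3 to 46.6). Fcgbp, a mucin-like secreted protein gene, averaged 9.34 TPM after transfer against 89.6 TPM before. Single cells weighed on others. Mt4, the metallothionein of stratified epithelium, averaged 0.772 TPM after transfer against 14.7 TPM before with 1 CD44-negative α6+ cell at 742.8 TPM, and Gpnmb, a glycoprotein of melanocytes and macrophages, 1.81 TPM after transfer against 11.9 TPM before with 1 such cell at 497.4 TPM. Mt4 and Gpnmb were detected in 3 and 11 of 94 cells after transfer and 7 and 10 of 70 CD44-negative α6+ cells.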

How the data were processed

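TPM per gene and library were deposited by the authors, in 1 table before and 1 after therapy. Bowtie2 2.2.9, RSEM 1.2.30 and build mm10 are named in the submitters' processing notes. The handling of multi-mapping reads was not stated in the sources used. Read depth cannot be had from TPM, and genes at 1 TPM or more were counted in its place. The tables held 46517 gene rows, of which 46005 matched GENCODE M21, and 92 ERCC spike-in rows.

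Groups came from the labels. Means, shares and exact Clopper-Pearson intervals were computed in Python 3.11.15 (numpy 2.4.6, pandas 2.3.3, scipy 1.17.1), and the scripts were tested on simulated data. ERCC rows, 8 mainly ribosomal rows and Itga6 were left out of the genes compared. Repeat libraries were found by correlation of log2(TPM + 1), as mutual best matches with a margin of 0.05 in r or an r of at least 0.88. Repeats of OT2 lay on OT_A and those of OT_B on OT1, were used only as a technical check and never counted as cells. Among the 13366 pairs of cells compared the median r was 0.732 and the highest 0.852. The lowest r of an accepted repeat pair was 0.736, and whether each pair was the same cell was not tested otherwise. Against libraries of plates outside the comparison and its repeats, the highest r was 0.882, for OT2_A10. The named genes were the 15 protein-coding genes with the largest and the 15 with the smallest ratio among those called with a mean of at least 10 TPM in either group, with examples of the 25 lists, Cd80 and Cd274. The members and lists were chosen with earlier results of these data known. The alternatives, 18 in number, varied the pseudocount, filters, Itga6 limit, scaling, plates and cell sets, and 1 more, without library OT2_A10, was chosen after seeing the data. Promoter windows are from RefSeq, GRCm38.p6.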

Additional observations from a re-analysis of the deposited data

Results flagged for a closer look

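The interferon response list changed direction between the 2 sets of CD44-negative α6+ cells that sex-linked transcripts divide. The median log2 fold of its 32 entered genes was 0.256 against the cells with Y-linked transcripts and -0.251 against those with Xist, and the difference between these was not tested. The cells after transfer are the same in both, and 91 of these 94 had Y-linked transcripts. The MHC class II list kept its direction in both, at -2.004 and -1.53.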

How the results depend on the processing

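Log2 folds and medians are after transfer over CD44-negative α6+ cells, and percents are of the genes entered under each choice. The percents called higher and lower, 1.3% and 1.87% as reported, were 3.63% and 4.02% with a pseudocount of 0.1, 0.264% and 0.208% with 10, 2.82% and 3.11% with TPM rescaled without spike-in and ribosomal rows, 2.25% and 4.66% without plate OT2, 4.98% and 3.86% without plate OT_B, and 2.39% and 3.11% among cells with neither Mki67 nor Top2a. The percent called higher was 2.63% against cells with Y-linked transcripts, 2.3% with Itga6 at 50 TPM or more and 1.95% with Krt10 under 10 TPM. Dropping a plate removes its part of the rule, which by construction raises the count.

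With Itga6 at 50 TPM or more, the suprabasal median reversed to -0.40, Sprr1a to -0.54, Mt4 to 0.56 and Gm94 to -0.017, and medians were 1.16 for MHC class I, -0.59 for class II, -0.40 for the cornified envelope and 0.52 for stress keratins. Without Mki67 or Top2a the G2/M and S phase medians reversed to 0.27 and 0.28, as that choice removes cycling cells, and class II was -0.91. The class II median was -2.81 and -0.64 with pseudocounts of 0.1 and 10, and the stress median 1.04 with 10. The cornified envelope median was 1.07 against Xist cells, 1.25 with Itga6 at 1 TPM and 1.16 with no Itga6 limit. Against cells with Y-linked transcripts Mmp13 reversed to 0.82 and the immediate early median was 0.80. Apart from the percent with Krt10 under 10 TPM, which moved by just under 1.5-fold, these are the 26 moved and 3 reversed summary values and the 4 reversed genes. Unless stated, the cause was not tested. The 1 alternative chosen after seeing the data, without library OT2_A10, moved no percent by 1.5-fold and no list median. Low TPM limit what detection shows. No paired analysis was possible because no animal is named and the result comes from no test.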

Other observations

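Several gene groups not described above showed little. The unfolded protein and heat shock list had 0 of 18 genes called and a median of 0.13. Hspb1, a small heat shock protein gene, averaged 616.0 TPM on OT2 and 160.4 TPM on OT_B, against 159.8 TPM in CD44-negative α6+ cells. Of 19 immediate early genes 1 was called, Egr2, a transcription factor, which was lower at 2.42 TPM after transfer against 11.9 TPM before, with a log2 fold of -0.11 against cells with Y-linked transcripts and -2.15 against those with Xist. The metallothionein list of 4 had 1 call, Mt4, and the complement and lipocalin list of 5 had none.

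The detection of 3 genes annotated as pseudogenes divided the cells compared here almost completely. Rpl3-ps1, on chromosome X, was detected in 2 of 48 cells on OT2 and 0 of 46 on OT_B, against 31 of 31 CD44-negative α6+ cells with Y-linked transcripts and 36 of 36 with Xist. Its mean in these last 2 sets was 209.9 and 210.1 TPM. Among other plates sampled before transfer, Rpl3-ps1 was detected in 73 of 73 libraries of CSC1, 10 of 32 of CSC2, 15 of 15 of plate CD44 and 2 of 43 of the α6-negative plate. CSC1 and CSC2 have the same label. Gm13394, on chromosome 2, was at 0 in every cell after transfer and in the 31 CD44-negative α6+ cells with Y-linked transcripts, and was detected in 35 of the 36 with Xist, at a mean of 376.9 TPM. Gm6166, on chromosome 9, was detected in 8 of 48 cells on OT2 and 7 of 46 on OT_B, against 31 of 31 CD44-negative α6+ cells with Y-linked transcripts and 3 of 36 with Xist. Pseudogenes made up 9.44% of the genes called lower and 3.7% of those called higher, against 4.54% of all genes entered. The genes were chosen here after their values were seen, and no cause was tested.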
